A study of Mus musculus with 6 samples.

Results

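The S100 proteins described here belong to a family of small calcium-binding proteins. They were measured as mRNA in hearts of mice that express DNMT3A2 and DNMT3L ectopically. The members were 10 gene symbols, S100a1, S100a4, S100a6, S100a8, S100a9, S100a10, S100a11, S100a13, S100a16 and S100b, and all array probe sets annotated to only 1 of these symbols were taken. This gave 14 probe sets for 9 genes, all 9 of which were among the 13634 genes tested. S100a11 had no probe set of its own, because its probe set is annotated to further loci as well. The symbols were selected on the measured log2 differences between the genotypes, which were already known, so the members' values between genotypes are given as a description and without p-values.

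Hearts came from 3 DNMTs-Tg mice (replicates 1, 5 and 6), which express DNMT3A2 and DNMT3L, and from 3 wild-type mice (replicates 1, 4 and 6). All 6 mice were 8 weeks old. The transgenic mice were bred from females of the Cre driver line FVB-Tg(Ddx4-cre)1Dcas/J and males carrying the flox allele. Expression covers a broad range of somatic cells, and the mice grew slowly after birth and died early, per the series' description. Whether the wild-type mice carried Cre or an unrecombined transgene is not given in the sources used here. One array was run per heart and nothing says how litters were spread over the groups, so p-values measure only the spread between these 6 hearts.

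Most S100 proteins bind calcium through a pair of EF-hand motifs, usually as dimers, and then expose a surface that grips target proteins. S100A8 and S100A9 form calprotectin, an abundant cytosolic complex of neutrophils and monocytes that is released in inflammation and acts on the receptors TLR4 and RAGE. S100A1 is the main S100 protein of heart muscle cells, where it acts on the ryanodine receptor and the calcium pump of the sarcoplasmic reticulum, while S100A4, S100A6, S100A10 and S100A11 are best known from stromal, epithelial and immune cells. Most S100 genes lie side by side in 1 cluster.

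Checks on the arrays came first. Dnmt3l, 1 of the transgenes' genes, averaged 12.29 ± 0.09 log2 units in DNMTs-Tg hearts and 5.31 ± 0.15 in wild-type hearts (SD, n = 3 each). Dnmt3a averaged 9.68 ± 0.23 in DNMTs-Tg hearts and 8.66 ± 0.40 in wild-type hearts. Whether its probe set reads the transgene, the endogenous gene or both is not known from the sources used here. The 6 array medians lay between 5.28 and 5.33 log2 units. Xist was near background and the Y-linked Eif2s3y high in every mouse except wild-type replicate 4, which goes against the labelled sex of 4 mice, all 3 DNMTs-Tg mice and wild-type replicate 1. Without wild-type replicate 4 the log2 differences of S100a8, S100a9, S100a4 and S100a1 described below were 1.80, 2.04, 1.35 and 0.47. The 3' minus the 5' signal of the Gapdh control probe sets was 0.66 ± 0.12 in DNMTs-Tg hearts and 0.43 ± 0.06 in wild-type hearts. Of 12 cardiomyocyte markers fixed as a list, all 12 were measured above the filter, with signals between 7.98 and 14.7 in DNMTs-Tg hearts and between 8.70 and 14.7 in wild-type hearts.

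Across all genes, 735 of 13634, or 5.39%, passed the threshold (limma, adjusted p of 0.05), with 306 higher (2.24%) and 429 lower in DNMTs-Tg hearts, and 3543 had an unadjusted p under 0.05. Leaving out 1 heart gave counts between 123, without wild-type replicate 1, and 1604, without DNMTs-Tg replicate 6. Of the 9 S100 genes, 3 passed, all of them higher: S100a1, S100a8 and S100a9. In 5 of the 9 genes all DNMTs-Tg values lay above all wild-type values, against 17.3% of all genes tested. The median log2 difference of the 9 genes was 0.53, against 0.01 over all genes, with 8 genes above 0 and 1 below. Since the genes were chosen with this contrast known, nothing is read from these shares. DNMTs-Tg replicate 1 was the highest of all 6 arrays in 7 of the 9 genes, and without it 6 of the 9 differences were above 0.

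**Figure D1:**
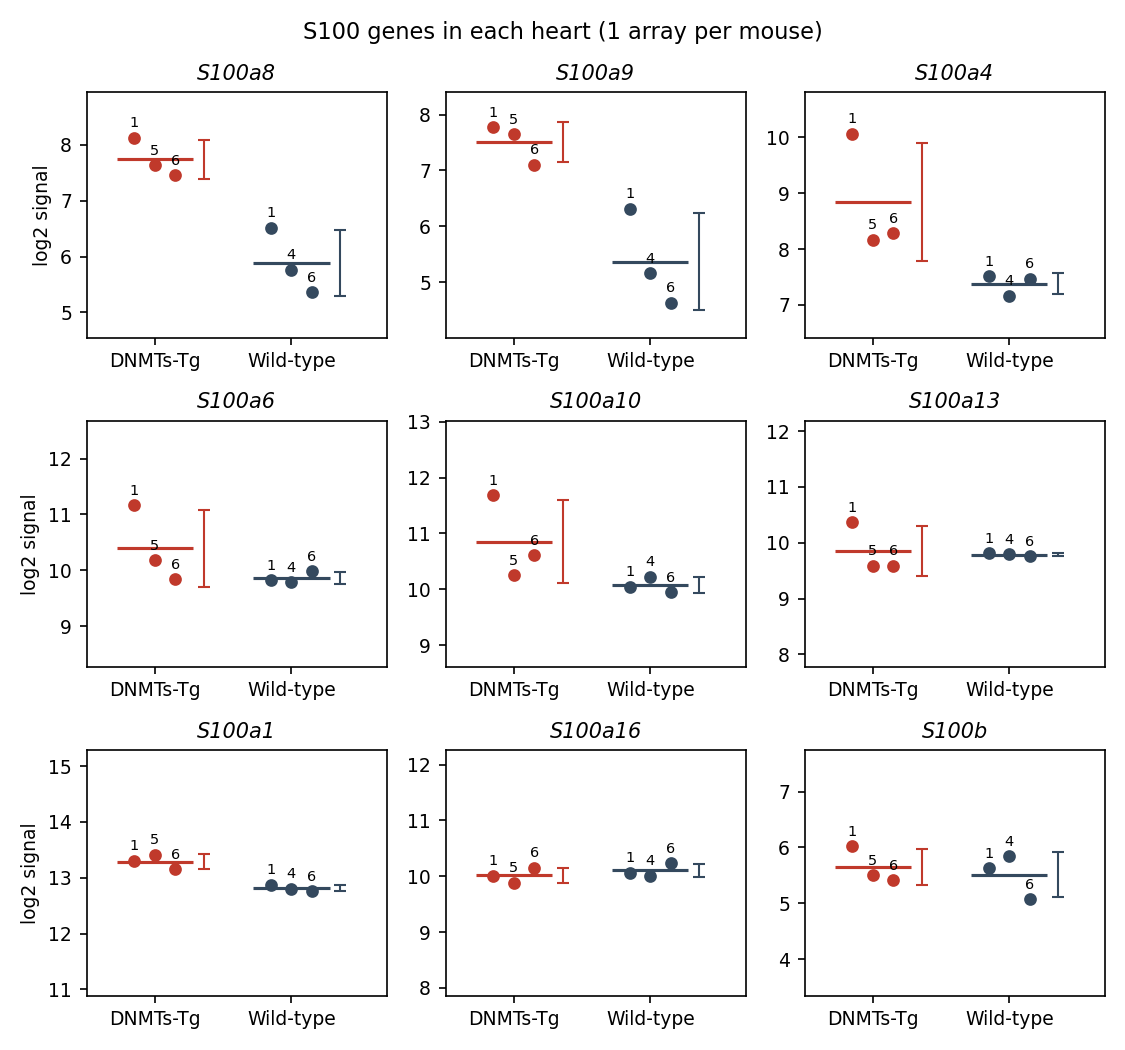
Log2 signal of the 9 S100 genes on each array, DNMTs-Tg hearts on the left and wild-type hearts on the right of each panel, with points for the arrays (replicate number above), lines for group means and bars for 1 SD on either side. S100a8 and S100a9 separate without overlap in all arrays, and DNMTs-Tg replicate 1 is the highest point of its group for S100a4, S100a6, S100a10 and S100a13.

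The calprotectin pair had the largest differences of the 9 genes. S100a8 (probe set 1419394_s_at) had log2 signals of 8.13, 7.64 and 7.45 in DNMTs-Tg replicates 1, 5 and 6, against 6.52, 5.77 and 5.36 in wild-type replicates 1, 4 and 6. All 3 DNMTs-Tg hearts lay above all 3 wild-type hearts, and wild-type replicate 1 was the highest of the wild-type hearts. The means were 7.74 ± 0.35 in DNMTs-Tg hearts and 5.88 ± 0.59 in wild-type hearts (SD, n = 3 each), a log2 difference of 1.86 ± 0.31 (SE), or 3.62-fold higher in DNMTs-Tg hearts. Ordered from the highest positive difference down, S100a8 ranked 64 of 13634 genes. The suffix of its only probe set marks probes shared with further transcripts.

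S100a9 (1448756_at), the larger partner of the complex, had log2 signals of 7.78, 7.65 and 7.10 in DNMTs-Tg replicates 1, 5 and 6, against 6.31, 5.16 and 4.63 in wild-type replicates 1, 4 and 6. The order of the hearts within each group was that of S100a8, and the groups did not overlap. The means were 7.51 ± 0.36 in DNMTs-Tg hearts and 5.37 ± 0.86 in wild-type hearts, a log2 difference of 2.14 ± 0.41 (SE), or 4.41-fold higher, at rank 44 of 13634 in the same order. Wild-type replicate 6 lay below its array's 40th percentile, the level used as the filter on dim signals, so its value is close to background.

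Leaving out 1 heart left both genes higher, but not always past the threshold. The S100a8 difference stayed between 1.60, without wild-type replicate 6, and 2.18, without wild-type replicate 1. For S100a9 the same 2 omissions gave 1.77 and 2.61. Both genes passed the threshold in 3 of the 6 fits, those without DNMTs-Tg replicate 1, DNMTs-Tg replicate 6 or wild-type replicate 1. Without DNMTs-Tg replicate 5, wild-type replicate 4 or wild-type replicate 6 neither passed.

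Sequence at the start of both genes is shown because DNMT3A2 methylates cytosine in CpG dinucleotides, with DNMT3L as a cofactor that has no catalytic activity. CpG dinucleotides are printed in capitals. The sequences are RefSeq windows (build GRCm38.p6) of 250 bases before to 50 bases after the gene's start. S100a8 starts in chr3:90668821-90669120 on the + strand, and S100a9 in chr3:90695672-90695971 on the - strand. These arrays measured no methylation.
S100a8: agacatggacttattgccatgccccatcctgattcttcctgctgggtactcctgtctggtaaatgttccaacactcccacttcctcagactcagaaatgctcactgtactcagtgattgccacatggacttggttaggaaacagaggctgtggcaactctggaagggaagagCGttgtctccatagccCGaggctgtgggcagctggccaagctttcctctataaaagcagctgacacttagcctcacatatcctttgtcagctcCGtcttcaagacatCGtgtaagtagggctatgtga
S100a9: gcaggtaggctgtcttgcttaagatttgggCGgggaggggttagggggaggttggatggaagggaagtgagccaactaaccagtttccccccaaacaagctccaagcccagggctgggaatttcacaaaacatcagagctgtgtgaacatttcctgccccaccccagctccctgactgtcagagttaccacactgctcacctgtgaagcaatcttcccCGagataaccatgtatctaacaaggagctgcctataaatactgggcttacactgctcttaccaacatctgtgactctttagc
The S100a8 window holds 4 CpG dinucleotides and the S100a9 window holds 2. Among 32851 windows of the same length the median was 7, and 38.0% had as few as S100a8 or fewer and 23.3% as few as S100a9 or fewer. The TATA box letters TATAAA, searched on both strands, occur in both windows and in that of S100a4, against 13.6% of all windows. A C/EBP motif, spelled TTGCNNAA and searched on both strands, occurs once in the S100a9 window and in no other S100 window, against 10.8% of all windows. An AP-1 element, spelled TGANTCA, which reads alike on both strands, occurs in neither of the pair's windows, against 7.8% of all windows. The matches in the S100a9 window do not overlap each other. A match of letters is a description of these windows only.

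Neutrophils, calprotectin's usual source, were followed through a list of marker mRNAs on the same arrays. Ly6g and Retnlg of that list had no probe set of their own, and the list does not measure how many neutrophils a heart held. Of 14 such markers 12 had a probe set and 8 were above the filter, and 0 of the 8 passed the threshold (limma, 1 with an unadjusted p under 0.05), with a median difference of 0.06. Over all genes tested 5.39% passed, and 3543 of 13634 had an unadjusted p under 0.05. In a list this short, 0 passing cannot be told apart from that share. The same shares stand beside the counts of every list below. The 8 lay between 4.88 and 6.15 log2 units in DNMTs-Tg hearts and between 5.13 and 6.11 in wild-type hearts, near the array medians. Mpo, Mmp8, Cxcr2 and Ctsg, which define granules and receptors of neutrophils, lay below the 40th percentile of every array. The mean of the 8 relative to wild-type was 0.00, 0.02 and 0.22 in DNMTs-Tg replicates 1, 5 and 6, and 0.06, -0.01 and -0.05 in wild-type replicates 1, 4 and 6. Csf3r, the receptor of the neutrophil growth factor G-CSF, averaged 5.64 in DNMTs-Tg hearts and 5.22 in wild-type hearts, a log2 difference of 0.43 ± 0.12 (SE, limma adjusted p = 0.0892). Ltf, lactoferrin of neutrophil granules, differed by 0.26 (limma adjusted p = 0.367). In whole heart tissue, fewer cells of a type and less RNA per cell cannot be told apart.

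Monocytes and macrophages are the other known source of S100a8 and S100a9. Of 15 measured monocyte and macrophage markers 0 passed (limma, 1 with an unadjusted p under 0.05), 13 were above 0 and the median difference was 0.25. Ccr2, the chemokine receptor of inflammatory monocytes, had signals of 7.03, 5.68 and 5.96 in DNMTs-Tg replicates 1, 5 and 6, against 4.79, 4.84 and 4.74 in wild-type replicates 1, 4 and 6. Its log2 difference was 1.44 ± 0.32 (SE, limma adjusted p = 0.0509). These values are of its brightest kept probe set. The wild-type values lay just above the 40th percentiles of the arrays (4.64 to 4.72) and are close to background. Another kept Ccr2 probe set had 5.51, 5.25 and 5.70 against 4.19, 4.11 and 4.36 in the same hearts, without overlap. The last kept probe set overlapped, with 5.48, 5.36 and 5.77 against 5.39, 5.47 and 5.47. The probe set left out by the filter did not overlap and was higher in DNMTs-Tg hearts. Cd163, a scavenger receptor of resident macrophages, averaged 8.03 in DNMTs-Tg hearts and 7.25 in wild-type hearts, a difference of 0.79 ± 0.39 (SE, limma adjusted p = 0.252) with overlapping groups. The list's mean relative to wild-type was 1.20, -0.14 and -0.03 in DNMTs-Tg replicates 1, 5 and 6, so by this mean DNMTs-Tg replicate 1 alone stood high. Whether monocytes or macrophages contribute to the S100a8 and S100a9 signal was not tested.

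**Figure D2:**
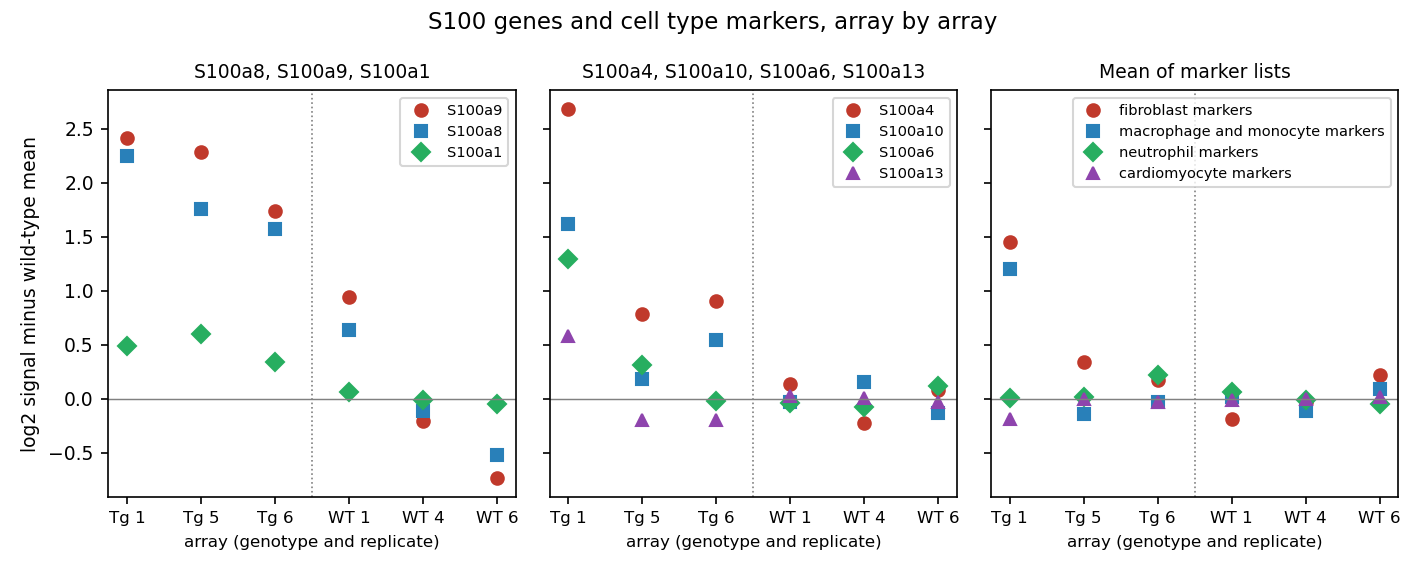
Log2 signal of 7 S100 genes (left and middle) and mean of 4 marker lists (right), each relative to its wild-type mean, for the 6 arrays (x axis) with DNMTs-Tg hearts left of the dotted line. DNMTs-Tg replicate 1 reaches 1.20 for macrophage markers and 1.45 for fibroblast markers, while the neutrophil markers stay within 0.22 of the wild-type mean.

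S100a4, S100a6 and S100a10 are stromal and epithelial members that act on the cytoskeleton and membranes. S100a4 (1424542_at), also called fibroblast-specific protein, binds non-muscle myosin. It had log2 signals of 10.06, 8.17 and 8.29 in DNMTs-Tg replicates 1, 5 and 6, against 7.52, 7.16 and 7.47 in wild-type replicates 1, 4 and 6. The groups did not overlap, and DNMTs-Tg replicate 1 stood far above the other transgenic hearts. The means were 8.84 ± 1.06 in DNMTs-Tg hearts and 7.38 ± 0.19 in wild-type hearts, a log2 difference of 1.46 ± 0.48 (SE), or 2.75-fold higher, at rank 114 of 13634 in that order. Without DNMTs-Tg replicate 1 the difference was 0.85, or 1.80-fold, and only that omission among the 6 brought S100a4 past the threshold.

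S100a6, calcyclin, a protein of proliferating and stromal cells, had log2 signals of 11.16, 10.18 and 9.84 in DNMTs-Tg replicates 1, 5 and 6, against 9.83, 9.79 and 9.98 in wild-type replicates 1, 4 and 6. The groups overlapped, through DNMTs-Tg replicate 6. The means were 10.39 ± 0.69 in DNMTs-Tg hearts and 9.86 ± 0.10 in wild-type hearts, a log2 difference of 0.53 ± 0.31 (SE). Without DNMTs-Tg replicate 1 it was 0.15.

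S100a10, p11, forms a tetramer with annexin A2 at the plasma membrane and had 3 probe sets. Its brightest (1456642_x_at) had log2 signals of 11.69, 10.25 and 10.61 in DNMTs-Tg replicates 1, 5 and 6, against 10.05, 10.22 and 9.94 in wild-type replicates 1, 4 and 6. The groups did not overlap, with only a narrow gap between DNMTs-Tg replicate 5 and wild-type replicate 4. The log2 difference was 0.78 ± 0.34 (SE), and 0.36 without DNMTs-Tg replicate 1. The second probe set (1416762_at) had signals of 11.29, 10.10 and 10.39 in DNMTs-Tg hearts and 10.07, 10.36 and 9.94 in wild-type hearts, with overlapping groups and a difference of 0.47. The dim probe set (1439348_at) had 5.36, 4.71 and 4.65 in DNMTs-Tg hearts and 5.30, 5.13 and 5.21 in wild-type hearts, a difference of -0.31. The 3 probe sets of S100a10 thus differ in sign, and the brightest carries a suffix for probes that may also bind other sequences.

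By the mean of their list, fibroblast markers were high in the same heart as S100a4, S100a6 and S100a10, DNMTs-Tg replicate 1. The monocyte and macrophage markers were high in that heart too, with a mean of 1.20 relative to wild-type. Of 12 measured fibroblast markers 0 passed (limma, 4 with an unadjusted p under 0.05), 10 were above 0 and the median difference was 0.52. Their mean relative to wild-type was 1.45, 0.34 and 0.17 in DNMTs-Tg replicates 1, 5 and 6, and -0.18, -0.03 and 0.22 in wild-type replicates 1, 4 and 6. The same measure for S100a4 was 2.68, 0.79 and 0.91 in DNMTs-Tg replicates 1, 5 and 6. Col1a2, a chain of fibrillar collagen, differed by 1.01 ± 0.35 (SE, limma adjusted p = 0.132). Postn, periostin of activated fibroblasts, averaged 11.08 in DNMTs-Tg hearts and 9.24 in wild-type hearts, a difference of 1.84 ± 0.66 (SE, limma adjusted p = 0.143). The part of stromal cells or of macrophages in the S100a4, S100a6 and S100a10 signals was not tested.

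S100a1, the cardiac member, had 2 probe sets that disagreed. The brighter (1419814_s_at) had log2 signals of 13.30, 13.41 and 13.16 in DNMTs-Tg replicates 1, 5 and 6, against 12.88, 12.81 and 12.76 in wild-type replicates 1, 4 and 6. The groups did not overlap, with means of 13.29 ± 0.13 in DNMTs-Tg hearts and 12.82 ± 0.06 in wild-type hearts, a log2 difference of 0.48 ± 0.09 (SE), or 1.39-fold higher. The other (1417421_at) had 11.68, 11.95 and 11.64 in DNMTs-Tg hearts and 11.81, 11.77 and 11.72 in wild-type hearts, a difference of -0.01 with overlapping groups. The mean of both probe sets differed by 0.24 and did not pass the threshold, nor did the brighter one in a fit without the variance trend. The suffix of the brighter marks probes shared with further transcripts, so its signal is not certain to be that of S100a1 alone. Leaving out 1 heart, its difference stayed between 0.42 and 0.54, and it passed in 2 of 6 fits, those without DNMTs-Tg replicate 1 or 6.

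**Figure D3:**
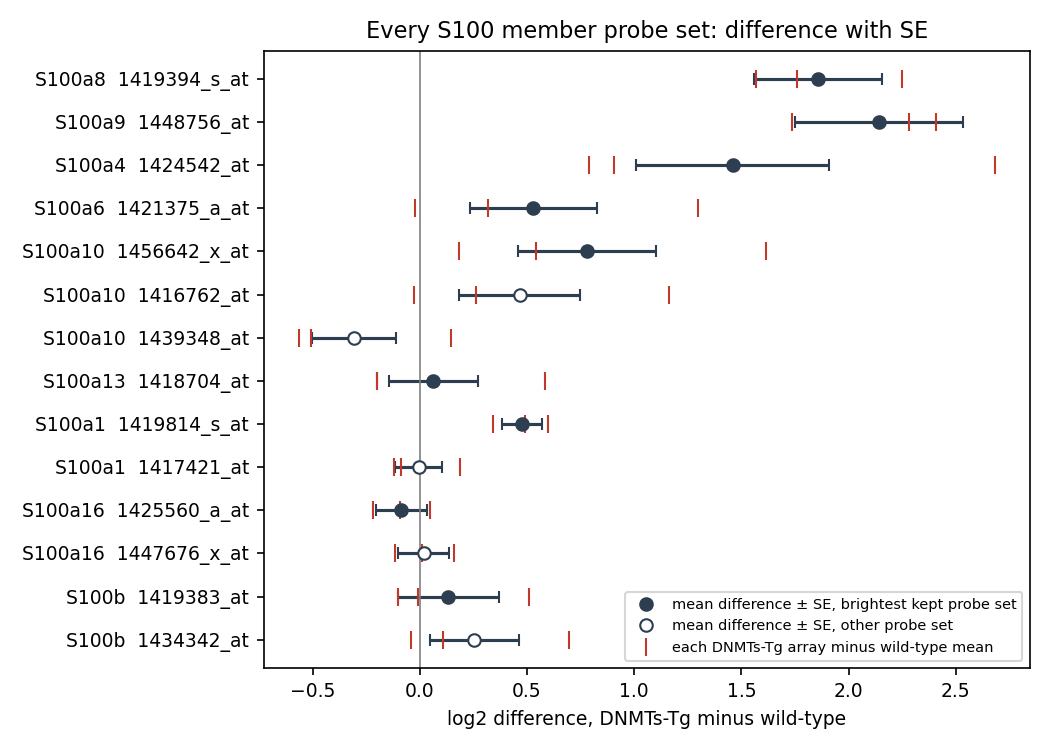
Log2 difference, DNMTs-Tg minus wild-type, of each of the 14 S100 probe sets with its standard error, from a fit of every probe set without the filter on dim signals, with filled points for the probe set that represents the gene and ticks for the single DNMTs-Tg arrays relative to the wild-type mean. The probe sets of S100a1 stand at 0.48 and -0.01 and those of S100a10 at 0.78, 0.47 and -0.31.

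Without the filter on dim signals, each probe set was tested on its own. Of 45037 probe sets, 2.11% passed and 26.5% had groups that did not overlap in either direction. Of the 14 S100 probe sets 3 passed, the brighter of S100a1 and those of S100a8 and S100a9, and 5 did not overlap.

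S100a13 starts next to S100a1 on the opposite strand and takes part in the release of FGF1. It had log2 signals of 10.37, 9.59 and 9.59 in DNMTs-Tg replicates 1, 5 and 6, against 9.81, 9.79 and 9.76 in wild-type replicates 1, 4 and 6. DNMTs-Tg replicate 1 lay above, and the other 2 DNMTs-Tg hearts below, every wild-type heart. The log2 difference was 0.06 ± 0.21 (SE), and -0.20 without DNMTs-Tg replicate 1. The start windows of the 2 genes, chr3:90514281-90514580 on the - strand for S100a1 and chr3:90514185-90514484 on the + strand for S100a13, share 204 bases with 7 CpG dinucleotides. The S100a1 window is shown because it holds more CpG, 11 in all and in capitals, than those of the calprotectin pair.
S100a1: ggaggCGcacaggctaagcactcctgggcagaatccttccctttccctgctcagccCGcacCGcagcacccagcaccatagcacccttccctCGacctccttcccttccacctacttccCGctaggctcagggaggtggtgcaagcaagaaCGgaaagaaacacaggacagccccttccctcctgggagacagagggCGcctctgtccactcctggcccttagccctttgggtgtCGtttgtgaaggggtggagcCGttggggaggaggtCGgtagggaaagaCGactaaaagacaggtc
The S100a13 window holds 14.

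S100a16 and S100b differed little between the genotypes. S100a16, a broadly expressed member, had log2 signals of 10.01, 9.89 and 10.15 in DNMTs-Tg hearts and 10.06, 10.01 and 10.24 in wild-type hearts on its brighter probe set, a difference of -0.09 ± 0.11 (SE), and its other probe set differed by 0.02. S100b, the member of glia and fat cells, had 6.02, 5.51 and 5.41 in DNMTs-Tg hearts and 5.62, 5.84 and 5.07 in wild-type hearts, a difference of 0.13 ± 0.24 (SE). The second S100b probe set lay below the 40th percentile on all 6 arrays. The groups overlapped for both genes.

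Markers of the cell types known for S100b were followed as lists. Of 9 measured Schwann cell and glial markers 0 passed (limma, 2 with an unadjusted p under 0.05), with a median difference of -0.06, and signals between 4.60 and 7.56 in DNMTs-Tg hearts and between 4.58 and 8.01 in wild-type hearts. Erbb3, the neuregulin receptor of Schwann cells, differed by -0.53 ± 0.18 (SE, limma adjusted p = 0.131), and Pmp2, a myelin protein, by -0.32 ± 0.12 (SE, limma adjusted p = 0.152). Of 8 adipocyte markers with a probe set, 5 were left out by the filter and 0 of the other 3 passed (limma, 0 with an unadjusted p under 0.05), with differences of -0.08 for Retn and -0.02 for Pparg. Adipoq, adiponectin, was among those left out and is named after its values were seen. It had signals of 2.96, 3.54 and 3.37 in DNMTs-Tg replicates 1, 5 and 6, against 5.60, 4.00 and 4.99 in wild-type replicates 1, 4 and 6. All DNMTs-Tg hearts lay below all wild-type hearts, as groups did not overlap in 26.5% of all probe sets without the filter. The DNMTs-Tg values and that of wild-type replicate 4 lay below the 40th percentiles of the arrays (4.64 to 4.72), so the size of the difference cannot be read. Of 6 lymphocyte markers 0 passed (limma, 0 with an unadjusted p under 0.05), with differences of -0.19 for Cd8a and 0.22 for Nkg7.

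Of 10 endothelial markers 1 passed (limma, 2 with an unadjusted p under 0.05), 6 were above 0 and the list's median difference was 0.06. The 1 that passed was Vwf, the von Willebrand factor, which rose by 1.39 ± 0.21 (SE, limma adjusted p = 0.0177). The other of these 2, Cldn5, is named after its values were seen. It went the other way, with a difference of -0.93 ± 0.29 (SE, limma adjusted p = 0.109). Vwf did not pass without DNMTs-Tg replicate 5, wild-type replicate 1 or wild-type replicate 4, when 0 endothelial markers passed. Of the 12 cardiomyocyte markers 1 passed (limma, 5 with an unadjusted p under 0.05), the cardiac transcription factor Nkx2-5. It was lower by a log2 difference of -0.59 ± 0.13 (SE, limma adjusted p = 0.0471). The others of these 5 are named after their values were seen. Actn2, Mybpc3 and Tnnc1 were higher, with differences of 0.41, 0.34 and 0.19, and Actc1 was lower, with -0.18. Leaving out any 1 of the 6 hearts, 0 cardiomyocyte markers were lower past the threshold, so Nkx2-5 lost its call each time, while 2 markers of the list were higher past it without DNMTs-Tg replicate 1 and 2 without DNMTs-Tg replicate 6. Nkx2-5 also did not pass with arrays set to a common median, without the filter, or with each probe set tested on its own. The median difference of the cardiomyocyte list was -0.15, and its mean relative to wild-type was -0.19, -0.01 and -0.03 in DNMTs-Tg replicates 1, 5 and 6.

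The other S100 genes were at background. Of 8 further S100 symbols 5 had a probe set (S100a3, S100a5, S100a7l2, S100a14 and S100g), none of them above the filter, with log2 signals between 2.64 and 5.23. S100a3, a gene of hair follicles, had 4.07, 3.99 and 4.17 in DNMTs-Tg hearts and 3.84, 3.90 and 3.84 in wild-type hearts. At these levels no difference can be read.

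Proteins that S100 members bind were followed as a list of 23, of which 19 were tested. None of the 19 passed (limma, 7 with an unadjusted p under 0.05), 10 were above 0, and the median difference was 0.11. Mdm2, the ubiquitin ligase of p53 that S100 proteins can bind, differed by 0.57 ± 0.14 (SE, limma adjusted p = 0.0683). Cacybp, the calcyclin-binding protein named for S100A6, averaged 9.79 in DNMTs-Tg hearts and 10.36 in wild-type hearts, a difference of -0.57 ± 0.15 (SE, limma adjusted p = 0.0758). The following 3 were named after their values were seen, for their role. Anxa2, the partner of S100a10, had signals of 11.06, 10.12 and 10.46 in DNMTs-Tg replicates 1, 5 and 6, against 9.99, 10.31 and 10.07 in wild-type replicates 1, 4 and 6, a difference of 0.42 ± 0.23 (SE, limma adjusted p = 0.289). Its highest value was, as for S100a10, in DNMTs-Tg replicate 1. Ryr2, the calcium release channel that S100A1 acts on, differed by -0.37 ± 0.22 (SE, limma adjusted p = 0.328), and Atp2a2, the calcium pump SERCA2, by -0.08 ± 0.07 (SE, limma adjusted p = 0.505).

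Receptors and adaptors that sense extracellular S100 proteins were a list of 13, of which 12 were tested. None passed (limma, 3 with an unadjusted p under 0.05), 9 were above 0, and the median difference was 0.34. Mcam, an adhesion molecule and S100A8 and S100A9 receptor, averaged 8.07 in DNMTs-Tg hearts and 7.45 in wild-type hearts, a difference of 0.62 ± 0.17 (SE, limma adjusted p = 0.0791). Tlr4, the Toll-like receptor that calprotectin activates, had signals of 9.14, 8.95 and 8.20 in DNMTs-Tg replicates 1, 5 and 6, against 7.62, 8.32 and 7.76 in wild-type replicates 1, 4 and 6. Its log2 difference was 0.87 ± 0.28 (SE, limma adjusted p = 0.119) and the groups overlapped. The list's mean relative to wild-type was 0.69, 0.17 and 0.04 in DNMTs-Tg replicates 1, 5 and 6.

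Transcription factors known to act on S100a8 and S100a9 were a list of 13, of which 11 were tested. None passed (limma, 2 with an unadjusted p under 0.05), 8 were above 0, and the median difference was 0.28. Cebpb, a C/EBP factor of myeloid cells and of the acute phase, had signals of 10.82, 9.93 and 10.56 in DNMTs-Tg replicates 1, 5 and 6, against 11.26, 11.48 and 10.99 in wild-type replicates 1, 4 and 6. Its difference was -0.81 ± 0.24 (SE, limma adjusted p = 0.0968). Stat3, which carries cytokine signals, differed by 0.52 ± 0.19 (SE, limma adjusted p = 0.150). Whether any of these factors acts on S100a8 and S100a9 in these hearts was not tested.

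In the genome 15 S100 genes lie on chromosome 3, in the order S100a1, S100a13, S100a14, S100a16, S100a3, S100a2, S100a4, S100a5, S100a6, S100a7a, S100a8, S100a9 and S100a7l2, then 77 other genes, then S100a11 and S100a10, while S100b lies on chromosome 10. S100a8 and S100a9 are direct neighbours. S100a4, at place 7 of the order, and S100a8 and S100a9, at places 11 and 12, had the largest differences. S100a6, at place 9 between them, had a difference of 0.53, close to the 0.48 of S100a1 at the start. S100a13 and S100a16, also near the start, had 0.06 and -0.09, and S100a10, at place 15, had 0.78. Of 35 tested genes that are not S100 genes, between the outermost S100 genes and up to 10 beyond each end, 1 was higher past the threshold and 0 lower, with 24 above 0 and a median difference of 0.05. That 1 gene is Rab13, a small GTPase of epithelial junctions. It had signals of 7.59, 7.20 and 7.39 in DNMTs-Tg replicates 1, 5 and 6, against 6.40, 6.32 and 6.37 in wild-type replicates 1, 4 and 6, a log2 difference of 1.03 ± 0.13 (SE, limma adjusted p = 0.00924). Without wild-type replicate 1 or 4, 0 of these neighbours passed.

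**Figure D4:**
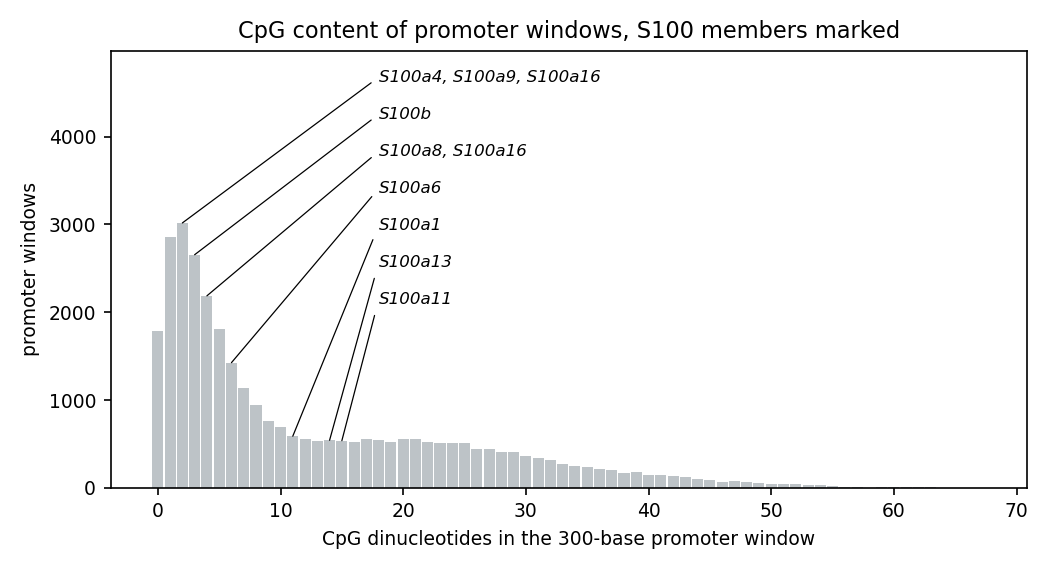
Number of CpG dinucleotides in the 32851 mouse promoter windows of 300 bases (x axis) against the number of windows (y axis), with the S100 windows marked. The 10 S100 windows hold 2 to 15 CpG, and 7 of them lie at or below the median of 7.

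Of the 10 S100 symbols 9 had a promoter window, 10 windows in all since S100a16 has 2, and S100a10 is named only. The windows held 2 to 15 CpG with a median of 4, and 7 of the 10 were at or below the median of all windows. S100a4 and 1 window of S100a16 had 2, S100b had 3, S100a6 had 6, and S100a11 had 15. Within the group, S100a4, S100a8 and S100a9 with 2 to 4 CpG had the largest differences, but S100a16 and S100b with 2 to 4 had differences close to 0.

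Genes whose profile over the 6 arrays was most like that of the 3 members with the largest differences were found by root mean square distance, after each gene was set relative to its wild-type mean. The gene most like S100a9 was S100a8, at 0.28 log2 units, followed by Neat1, the long noncoding RNA of nuclear paraspeckles (0.38), Resf1, a factor of retroelement silencing (0.38), and Syn2, a synapsin (0.48). The nearest to S100a8 were Neat1 (0.18), S100a9 (0.28), Proser2 (0.32) and Hsf2bp (0.32). Neat1 had signals of 12.24, 12.03 and 12.01 in DNMTs-Tg replicates 1, 5 and 6, against 11.04, 10.09 and 9.96 in wild-type replicates 1, 4 and 6, so wild-type replicate 1 was the highest wild-type heart here too. The nearest to S100a4 were Cdr2 (0.14), Gcnt2, a glycosyltransferase (0.16), Tmem176a (0.16) and Abcc3, an export pump (0.21), each with its highest value in DNMTs-Tg replicate 1. A small distance over 6 arrays shared by both genes is a description.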

How the data were processed

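Total RNA of 6 mouse hearts was labelled and hybridised to Affymetrix expression arrays, per the labels' protocols. The authors deposited 1 table of log2 signal per probe set and array; that the values are log2 was read from their range, 2.06 to 14.7, and their normalization is not given in the sources used here. Probe sets (45101, of which 64 are controls) were named through the platform annotation, updated by gene ID, giving 34958 with 1 symbol, 932 with several and 9211 with none.

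A probe set was kept if at least 3 of 6 arrays lay above their own 40th percentile, and each gene was represented by its brightest kept probe set. Differences, DNMTs-Tg minus wild-type, were tested with limma 3.58.1 (R 4.3.3; lmFit, eBayes with a trend) over 13634 genes, with Benjamini-Hochberg adjustment and a threshold of 0.05. The smallest exact permutation p for 3 against 3 is 0.1, so no single-gene permutation test was used. Arrays give no read depth, and their number limits the precision. The procedure was tested on simulated data. Promoter windows and gene order come from RefSeq (GRCm38.p6).

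The S100 members, the gene lists and the tests were chosen with earlier results of these data known. Named genes are all members and their probe sets, and of each list those past the threshold or else the 2 with the smallest p, plus the 4 genes nearest in profile to 3 members. Replicate numbers 1 and 6 occur in both groups. Alternatives covered normalization, the filter, the choice of probe set, the variance model, array weights, a replicate block, the threshold and leaving out each array.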

Additional observations from a re-analysis of the deposited data

Results flagged for a closer look

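The probe set of S100a11 is also annotated to S100a11-ps and Gm12854, so it was not counted among the S100 members, yet its signal was strong. It averaged 10.42 ± 0.68 log2 units in DNMTs-Tg hearts and 9.68 ± 0.12 in wild-type hearts (SD, n = 3 each), far above the 40th percentiles of the arrays, which lay between 4.64 and 4.72. On the single arrays it read 11.20, 10.03 and 10.02 log2 units in DNMTs-Tg hearts (replicates 1, 5 and 6), against 9.60, 9.64 and 9.82 in wild-type replicates 1, 4 and 6. The groups did not overlap and DNMTs-Tg replicate 1 was the highest, as it was for S100a4, S100a6 and S100a10. The log2 difference was 0.73 ± 0.30 (SE, limma without the filter), given as a description. Which of the 3 loci gives the signal was not tested.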

How the results depend on the processing

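Of 143 recomputed differences of S100 members 142 moved by less than the spread between replicates, and the exception was S100a1 at 0.24 with the mean of its probe sets. This count is a weak check. A change of the variance model alone cannot move a difference. With each probe set on its own, only the probe set with the smallest p was compared. The spread includes DNMTs-Tg replicate 1, and without it S100a4 went from 1.46 to 0.85 and S100a13 from 0.06 to -0.20. Both were counted as within the spread. Of 252 recomputed counts 187 stayed within 1.5 times the reported count or at 0. S100b has no value under the filter at the 60th percentile. With array weights, whose fit stopped before it converged, 4822 genes passed in place of 735, and 8 binding partners, 5 receptors, 4 transcription factors, 2 neutrophil, 3 macrophage, 2 Schwann cell, 5 fibroblast, 3 endothelial and 6 cardiomyocyte markers and 9 cluster neighbours. At an adjusted p of 0.1, 1655 genes passed, with 3 binding partners, 1 receptor, 1 transcription factor, 1 neutrophil, 1 macrophage and 3 cardiomyocyte markers and 2 cluster neighbours. At 0.01, 135 genes passed, with 0 S100 members, 0 endothelial and 0 cardiomyocyte markers.

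Replicate numbers 1 and 6 occur in both groups, and the deviations of same-numbered hearts from their group means correlated at -0.05 and -0.08. Such correlations over 3 arrays per group cannot tell whether same-numbered hearts shared a litter or a processing day. With the number as a replicate block, 1 gene passed, with 0 S100 members, 0 endothelial markers, 0 cardiomyocyte markers and 0 cluster neighbours. DNMTs-Tg replicate 5 and wild-type replicate 4 stand alone in their blocks in this fit and add nothing to the difference. The fit thus rests on replicates 1 and 6 of each group and has fewer residual degrees of freedom. With the mean of probe sets, 2 binding partners and 1 macrophage marker passed, and with each probe set on its own 1 binding partner, 1 receptor, 1 macrophage marker and 0 cardiomyocyte markers. The cardiomyocyte count was 0 with a common median, 0 without the filter and 3 with the stricter filter.

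Leaving out 1 heart gave 123 to 1604 genes, 0 to 4 S100 members, 0 to 4 binding partners, 0 to 1 receptors, 0 to 2 transcription factors, 0 to 1 macrophage, 0 to 2 fibroblast, 0 to 1 endothelial and 0 to 2 cardiomyocyte markers, and 0 to 2 cluster neighbours. The counts were lowest without wild-type replicate 1 and highest without DNMTs-Tg replicate 6 for all genes. S100 members numbered 0 without DNMTs-Tg replicate 5, wild-type replicate 4 or wild-type replicate 6. The cause of these changes was not tested.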

Other observations

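Among the cluster neighbours that did not pass, Sprr1a, a small proline-rich protein of epidermis and of stressed heart muscle, was singled out after its values were seen. It had log2 signals of 10.38, 7.12 and 6.07 in DNMTs-Tg replicates 1, 5 and 6, against 5.44, 5.64 and 5.54 in wild-type replicates 1, 4 and 6. The groups did not overlap, and the difference was 2.32 ± 0.98 (SE, limma adjusted p = 0.190).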
